A study of Mus musculus with 8 samples.

Results

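The genes described here are 26 genes of cholesterol synthesis and sterol sensing, taken as a list of names and not by a cut on their values, though with earlier results of these data known, out of 20476 genes with mRNA probes on the array. All 26 were found by their gene symbol. Their probes were well above background on all 8 arrays, so none was lost to the filter that left 18198 mRNA genes for testing. The list does not hold every enzyme of the route, and enzymes outside it were not analysed here.

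Spinal cord RNA came from 8 female mice aged 8 weeks, 1 sample per mouse, with 4 contusion mice and 4 control mice. The tissue was the T9 to T10 cord that held the lesion, per the series' design text. No strain, genotype or transgene is given, so nothing but the injury is stated to differ between the groups. The labels disagree on the details: the contusion titles say 3 days after injury, the descriptions of contusion replicates 1, 2, 3 and 4 say 3, 4, 5 and 6 days, and the controls are called sham in the design text and normal cord in their descriptions. The total RNA was labelled with Cy3 and hybridised to Agilent 1-colour arrays with probes for circular RNAs (circRNAs), long non-coding RNAs and mRNAs.

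Cells build cholesterol from acetyl-CoA in a long chain of enzymes: the mevalonate pathway makes isoprenoid units, these are joined to squalene, squalene is closed to lanosterol, and lanosterol is trimmed to cholesterol. When membranes in the endoplasmic reticulum are low in sterol, SCAP carries the SREBP transcription factors to the Golgi, where they are cut free and switch on these enzymes together; when sterol is plentiful, INSIG proteins hold SCAP back. The central nervous system makes nearly all of its own cholesterol, most of it for myelin, because the blood-brain barrier keeps lipoproteins out.

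Levels below are log2 of the background-corrected intensity after subtracting each array's 75th percentile, so 0 is that percentile and 1 unit is a doubling. Levels of different probes are not comparable with each other. Between 72.9% and 75.4% of probes were well above background on each array, and no spot was saturated. The arrays lay on 2 slides that were also 2 scans: slide 1 held control replicates 2, 3 and 4 with contusion replicate 1, and slide 2 held control replicate 1 with contusion replicates 2, 3 and 4. For the 26 genes, differences within each slide are therefore given beside the pooled ones.

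The injured cord had less of the mRNAs for most of this route. Of the 26 genes, 19 were lower in the contusion samples (limma with Benjamini-Hochberg adjustment over all 89140 tested features, adjusted p under 0.05), 1 was higher (Lbr), and 6 did not pass (Pmvk, Hsd17b7, Ebp, Insig2, Srebf1 and Scap). Over all tested mRNAs, 25.4% were called lower and 25.8% higher, so lower calls among the 26 genes were well above that background and higher calls below it. The median difference over the 26 genes was -0.57 on the log2 scale, against -0.0016 over all mRNAs. All 4 contusion arrays lay below all 4 controls for 18 of the genes, and above them for 1, where 25.2% and 26.6% of all mRNAs did so. The 4 controls had mean levels over the 26 genes of 4.00, 4.41, 4.32 and 4.34, and the 4 contusion samples had 3.83, 3.71, 3.75 and 3.70. In bulk tissue, fewer cells of a type and less RNA per cell cannot be told apart.

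**Figure D1:**
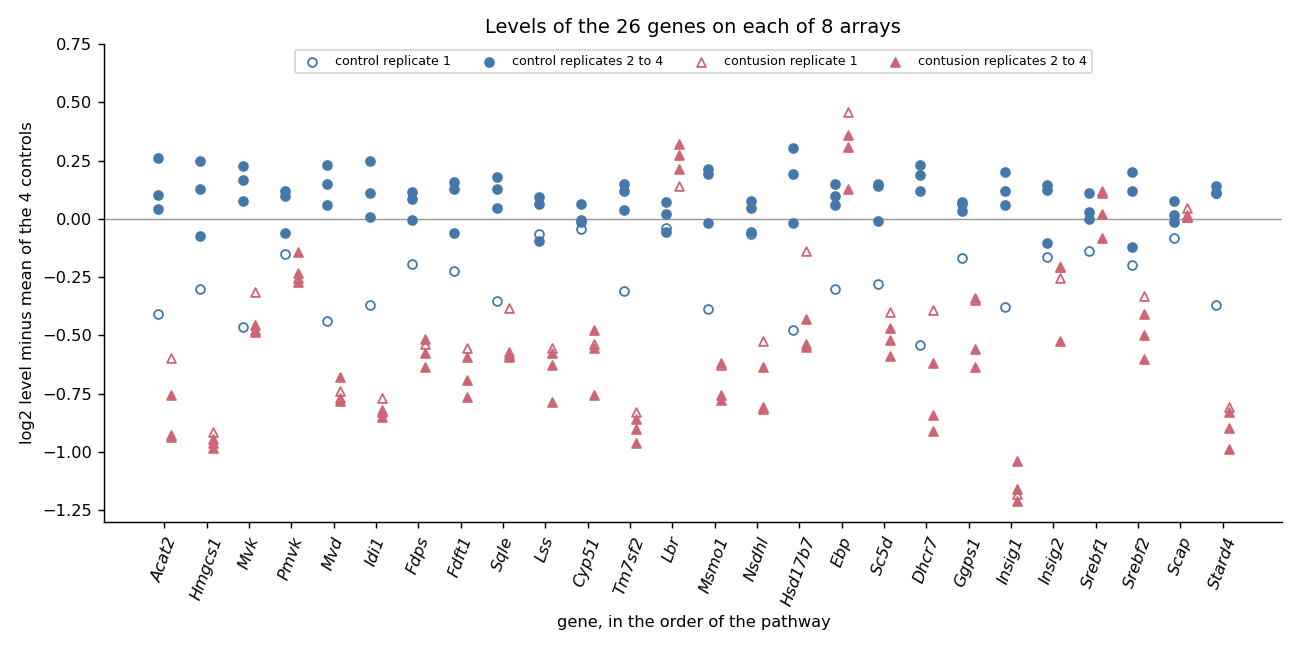
Log2 level of each gene on each array minus the mean of the 4 controls; circles are controls, triangles contusion samples, and open symbols replicate 1 of each group. Most triangles lie below the circles, Lbr and Ebp lie at or above them, and control replicate 1 (open circle) is the lowest control for 24 of the 26 genes.

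Control replicate 1, the only control on slide 2, stood apart for these genes. It was the lowest control for 24 of 26, with a median gap of -0.39 to the mean of the other 3, while its median gap over all mRNAs was -0.09. Contusion replicate 1, the only contusion sample on slide 1, was the highest of its group for 17 of 26. The median difference was -0.55 within slide 1 and -0.32 within slide 2, and 20 of the genes lay closer to 0 on slide 2. All 20 called genes kept their direction on both slides. With slide as a block in the fit, the median was -0.45, and 18 genes were called lower and 1 higher, beside 20.4% and 25.2% of all mRNAs: Mvk (adjusted p = 0.138) and Lbr (adjusted p = 0.0615) were no longer called, while Ebp was (difference 0.46 ± 0.09, SE, adjusted p = 0.00771). Without control replicate 1 the median was -0.64 and 22 genes were called lower. With each slide holding only 1 array of one group, slide and the state of that mouse cannot be told apart within a slide.

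**Figure D2:**
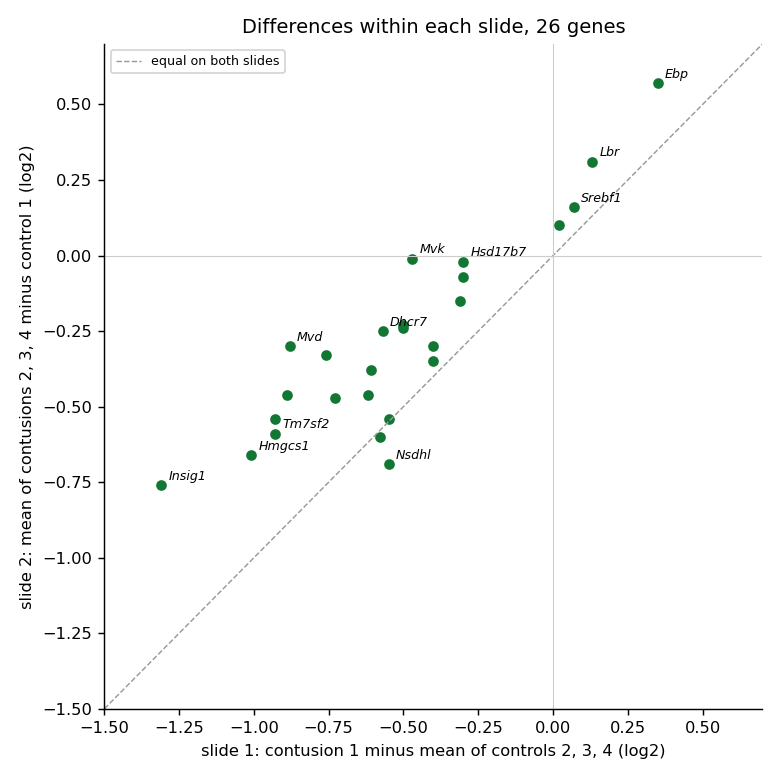
Difference of each of the 26 genes within slide 1 (x axis, log2) and within slide 2 (y axis, log2), with a dashed line where both are equal. Most points lie above the line, meaning closer to 0 or higher on slide 2, and Insig1 is the lowest on both, at -1.31 and -0.76.

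Promoters of 22 of the 26 genes were found in a RefSeq table of the mouse build GRCm38.p6, and the 250 bases before each start were searched on both strands for 4 motifs. The motifs were TCACNCCAC (a form of the sterol element that SREBP binds), CCAAT (the box bound by NF-Y, a partner of SREBP), CACGTG (an E-box) and GGGCGG (the box bound by SP1); some matches of different motifs can overlap. A gene with several listed starts counted once if any of its windows held the motif. CCAAT was in 20 of 22 genes (90.9%), where 39.6% of the 14411 tested mRNA genes with a window held it. GGGCGG was also in 20 of 22 (90.9%, against 53.5%), CACGTG in 5 of 22 (22.7%, against 8.63%), and TCACNCCAC in 1, Hmgcs1 (4.55%, against 1.26%). No match says only that these letters are not in the window searched. The windows of 6 genes are shown, 4 with large decreases (Hmgcs1, Idi1, Tm7sf2 and Insig1) and the pair that lay higher (Lbr and Ebp), each read along the gene's own strand and ending at the base before the start. Capitals mark CCAAT, or ATTGG where it is on the opposite strand, and TCACCCCAC in Hmgcs1.
Hmgcs1, chr13:119690101-119690350, plus strand: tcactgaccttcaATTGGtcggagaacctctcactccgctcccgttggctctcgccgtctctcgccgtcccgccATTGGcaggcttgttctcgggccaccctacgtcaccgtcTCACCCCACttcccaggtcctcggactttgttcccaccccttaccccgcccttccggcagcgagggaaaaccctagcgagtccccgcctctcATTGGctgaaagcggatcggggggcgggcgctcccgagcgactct
Idi1, chr13:8885356-8885605, plus strand: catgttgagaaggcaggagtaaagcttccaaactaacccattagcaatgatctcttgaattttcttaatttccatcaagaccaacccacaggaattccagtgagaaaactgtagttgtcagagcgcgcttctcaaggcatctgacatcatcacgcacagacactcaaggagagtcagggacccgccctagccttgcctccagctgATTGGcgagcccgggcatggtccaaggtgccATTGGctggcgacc
Tm7sf2, chr19:6067851-6068100, minus strand: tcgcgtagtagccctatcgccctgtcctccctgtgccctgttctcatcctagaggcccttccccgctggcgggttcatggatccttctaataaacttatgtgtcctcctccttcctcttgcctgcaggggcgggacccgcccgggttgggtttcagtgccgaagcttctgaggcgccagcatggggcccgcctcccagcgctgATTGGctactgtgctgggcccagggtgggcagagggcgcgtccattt
Insig1, chr5:28071162-28071411, plus strand: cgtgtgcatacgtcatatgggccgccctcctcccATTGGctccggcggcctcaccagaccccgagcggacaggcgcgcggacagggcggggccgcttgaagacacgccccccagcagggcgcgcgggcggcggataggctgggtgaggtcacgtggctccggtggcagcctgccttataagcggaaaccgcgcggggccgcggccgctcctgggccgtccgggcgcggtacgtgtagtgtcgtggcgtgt
Lbr, chr1:181842402-181842651, minus strand: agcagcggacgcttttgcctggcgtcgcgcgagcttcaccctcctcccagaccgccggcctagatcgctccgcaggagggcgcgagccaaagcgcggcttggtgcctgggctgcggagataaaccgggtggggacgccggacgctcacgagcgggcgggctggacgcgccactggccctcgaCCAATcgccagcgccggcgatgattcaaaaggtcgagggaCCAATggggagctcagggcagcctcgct
Ebp, chrX:8193513-8193762, minus strand: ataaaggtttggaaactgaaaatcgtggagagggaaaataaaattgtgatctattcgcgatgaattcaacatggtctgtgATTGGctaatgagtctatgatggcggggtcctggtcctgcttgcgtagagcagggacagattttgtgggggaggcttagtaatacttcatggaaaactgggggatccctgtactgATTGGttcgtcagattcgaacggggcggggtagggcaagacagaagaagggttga
In Hmgcs1 the TCACCCCAC match begins 137 bases before the start, between ATTGG matches that begin 176 and 45 bases before it. Idi1 has ATTGG at 45 and 14 bases before the start, Tm7sf2 at 47 and Insig1 at 216. Lbr, which was higher in contusion, has CCAAT at 68 and 28 bases, and Ebp has ATTGG at 170 and 55. The box was thus present in genes that lay lower and in genes that lay higher.

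In the mevalonate pathway, up to farnesyl diphosphate, 6 of the 7 listed genes were lower and 1 did not pass, with a median difference of -0.74. Hmgcs1, the cytosolic synthase that makes HMG-CoA, was at 6.69, 7.24, 6.92 and 7.12 in the controls and at 6.08, 6.01, 6.03 and 6.05 in the contusion samples. The groups did not overlap, and the contusion samples lay within a narrow band. The difference was -0.95 ± 0.12 (SE, adjusted p = 0.000492), or 51.8% of the control level, with -1.01 within slide 1 and -0.66 within slide 2. Acat2, the thiolase that opens the pathway by joining acetyl-CoA units, was at 4.95, 5.62, 5.46 and 5.40 in controls and 4.76, 4.43, 4.60 and 4.42 after contusion. It fell by 0.80 ± 0.15 (SE, adjusted p = 0.00348), with control replicate 1 nearest to the contusion samples; the difference was -0.73 within slide 1 and -0.47 within slide 2. A second Acat2 probe, whose accession list also names Acat3, a close relative, differed by -0.16 and did not pass (adjusted p = 0.0650).

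Idi1, the isomerase that readies isoprenoid units for joining, was at 4.88, 5.50, 5.26 and 5.36 in controls and 4.48, 4.42, 4.40 and 4.43 in contusion samples. It fell by 0.81 ± 0.13 (SE, adjusted p = 0.00144), and its 3 probes ranged from -0.81 to -0.76. Within the slides it was -0.89 and -0.46. Mvd, the decarboxylase that yields isopentenyl diphosphate, was at 4.15, 4.82, 4.65 and 4.74 in controls and 3.85, 3.81, 3.91 and 3.82 in contusion samples. It fell by 0.74 ± 0.14 (SE, adjusted p = 0.00385); the difference was -0.88 within slide 1 and -0.30 within slide 2. Fdps, the synthase of farnesyl diphosphate, went from 5.35 ± 0.14 to 4.78 ± 0.05 (SD, n = 4 each; difference -0.57 ± 0.08, SE, adjusted p = 0.00103 by limma), with -0.61 within slide 1 and -0.38 within slide 2.

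Between them lie the kinases Mvk and Pmvk, which phosphorylate mevalonate in turn, and here the differences were smaller and their calls less stable. Mvk was at 4.58, 5.27, 5.21 and 5.12 in controls and 4.73, 4.56, 4.59 and 4.57 in contusion samples. Control replicate 1 lay among the contusion samples, so the groups overlapped. The difference of -0.43 ± 0.15 (SE) passed narrowly (adjusted p = 0.0490), was -0.47 within slide 1 and -0.01 within slide 2, and lost its call in 7 of the 8 fits that left out 1 array (adjusted p up to 0.121), all but the one without control replicate 1 (then -0.59, adjusted p = 0.00111). One of its 3 probes went the other way, at 0.08 (adjusted p = 0.598). Pmvk differed by -0.23 ± 0.08 (SE, adjusted p = 0.0523), and by -0.28 (adjusted p = 0.0210) without control replicate 1; within the slides it was -0.30 and -0.07. Tested as features of their own, 2 of its 3 probes were called lower (-0.43 and -0.23, adjusted p = 0.0344 and 0.0454).

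All 3 genes of the step from farnesyl diphosphate to lanosterol were lower. Fdft1, squalene synthase, was at 3.58, 3.93, 3.74 and 3.96 in controls and 3.25, 3.21, 3.11 and 3.04 in contusion samples, with no overlap (difference -0.65 ± 0.10, SE, adjusted p = 0.00135). Its other probes, both much dimmer, differed by -0.31 (adjusted p = 0.0276) and 0.15 (adjusted p = 0.254). Within the slides Fdft1 was at -0.62 and -0.46. Sqle, squalene epoxidase, a second control point of the route, was at 5.22, 5.70, 5.62 and 5.75 in controls and 5.19, 4.98, 5.00 and 4.99 in contusion samples. Control replicate 1 and contusion replicate 1 all but touched, and the difference was -0.53 ± 0.12 (SE, adjusted p = 0.00915), with -0.50 within slide 1 and -0.23 within slide 2. Lss, which closes epoxidised squalene to lanosterol, was at 0.25, 0.38, 0.22 and 0.41 in controls and -0.24, -0.31, -0.47 and -0.26 in contusion samples. On this probe control replicate 1 did not stand apart, and the difference of -0.64 ± 0.08 (SE, adjusted p = 0.000497) was alike within the slides, at -0.58 and -0.60. The other Lss probes, both dimmer, were called lower too, at -0.82 and -0.45. On the probe at -0.82, control replicate 1 did stand apart, at -1.10 with the other controls between -0.72 and -0.60.

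The 9 genes from lanosterol to cholesterol were mixed: 6 were lower, 1 was higher, and 2 did not pass, with a median difference of -0.58. Cyp51, the demethylase that acts first on lanosterol, was at 2.37, 2.48, 2.40 and 2.41 in controls and 1.88, 1.86, 1.66 and 1.94 in contusion samples. It fell by 0.58 ± 0.07 (SE, adjusted p = 0.000644), with -0.55 within slide 1 and -0.54 within slide 2 on this probe. All 4 Cyp51 probes were lower, but on the dimmest control replicate 1 stood apart, at 0.28 with the other controls between 0.66 and 0.77. Nsdhl, a dehydrogenase that helps to strip methyl groups from the sterol, was at 2.38, 2.52, 2.39 and 2.49 in controls and 1.92, 1.64, 1.63 and 1.81 in contusion samples. On this probe the controls lay close together and the difference was -0.70 ± 0.09 (SE, adjusted p = 0.000504), with -0.55 within slide 1 and -0.69 within slide 2. The dimmest Nsdhl probe gave -0.41, with control replicate 1 at -1.18 and the other controls between -0.93 and -0.60. Msmo1, the methyl oxidase that works beside Nsdhl, went from 6.14 ± 0.28 to 5.44 ± 0.08 (SD, n = 4 each; difference -0.70 ± 0.14, SE, adjusted p = 0.00418 by limma), with -0.76 within slide 1 and -0.33 within slide 2.

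Tm7sf2 and Lbr carry the same reductase activity, on the sterol that Cyp51 makes, and they moved apart. Tm7sf2 was at 3.76, 4.19, 4.22 and 4.11 in controls and 3.24, 3.17, 3.21 and 3.11 in contusion samples, a difference of -0.88 ± 0.11 (SE, adjusted p = 0.000478) or 54.2% of the control level (-0.93 and -0.59 within the slides). Lbr, the lamin B receptor of the inner nuclear membrane, was at 3.49, 3.47, 3.60 and 3.55 in controls and 3.67, 3.80, 3.85 and 3.74 in contusion samples. Every contusion sample was above every control, by a small step: the difference was 0.24 ± 0.07 (SE, adjusted p = 0.0202), or 118% of the control level, with 0.13 within slide 1 and 0.31 within slide 2. That call was lost with slide as a block and in 3 of the 8 fits that left out 1 array, those without control replicate 2, contusion replicate 2 or contusion replicate 3 (adjusted p up to 0.0603), and the second Lbr probe differed by 0.16 without passing (adjusted p = 0.110). Within each array, the log2 ratio of Tm7sf2 to Lbr was 1.12 lower on average in the contusion samples (change -1.12). The groups of both genes lay apart in opposite directions, so this ratio could not overlap and restates their differences. No test was run on it.

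Ebp, the sterol isomerase that follows, did not fall either. It was at 4.50, 4.90, 4.95 and 4.86 in controls and 5.26, 4.93, 5.16 and 5.11 in contusion samples, so that only contusion replicate 2 reached into the control range. The difference was 0.31 ± 0.12 (SE, adjusted p = 0.0661; 95% interval 0.04 to 0.58). Its second probe was higher by 0.40 (adjusted p = 0.00578), and both slides gave a positive difference, 0.35 and 0.57. Without control replicate 1 the difference was 0.21 (adjusted p = 0.0973).

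Sc5d, the desaturase after Ebp, went from 4.65 ± 0.20 to 4.16 ± 0.08 (SD, n = 4 each; difference -0.49 ± 0.11, SE, adjusted p = 0.00680 by limma), with -0.50 within slide 1 and -0.24 within slide 2. Dhcr7, the reductase that removes a double bond from the B ring of the sterol, was at 4.34, 5.11, 5.00 and 5.07 in controls and 4.49, 3.97, 4.26 and 4.04 in contusion samples. Control replicate 1 lay below contusion replicate 1, so the groups overlapped. The difference was -0.69 ± 0.19 (SE, adjusted p = 0.0220; -0.57 within slide 1 and -0.25 within slide 2), and the call was lost in the 5 fits without control replicate 2, 3 or 4 or contusion replicate 2 or 4 (adjusted p up to 0.0613). A dimmer Dhcr7 probe gave -0.71 ± 0.07 (SE, adjusted p = 0.000213). Hsd17b7, the reductase that completes each demethylation, was at 3.68, 4.46, 4.35 and 4.14 in controls and 4.02, 3.62, 3.73 and 3.61 in contusion samples, with overlap and no call (difference -0.41 ± 0.18, SE, adjusted p = 0.102). Without control replicate 1 it was called (difference -0.57, adjusted p = 0.0111), and within the slides it was -0.30 and -0.02. Of its 3 probes tested as features of their own, 1 was called lower (-0.31, adjusted p = 0.0112).

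**Figure D3:**
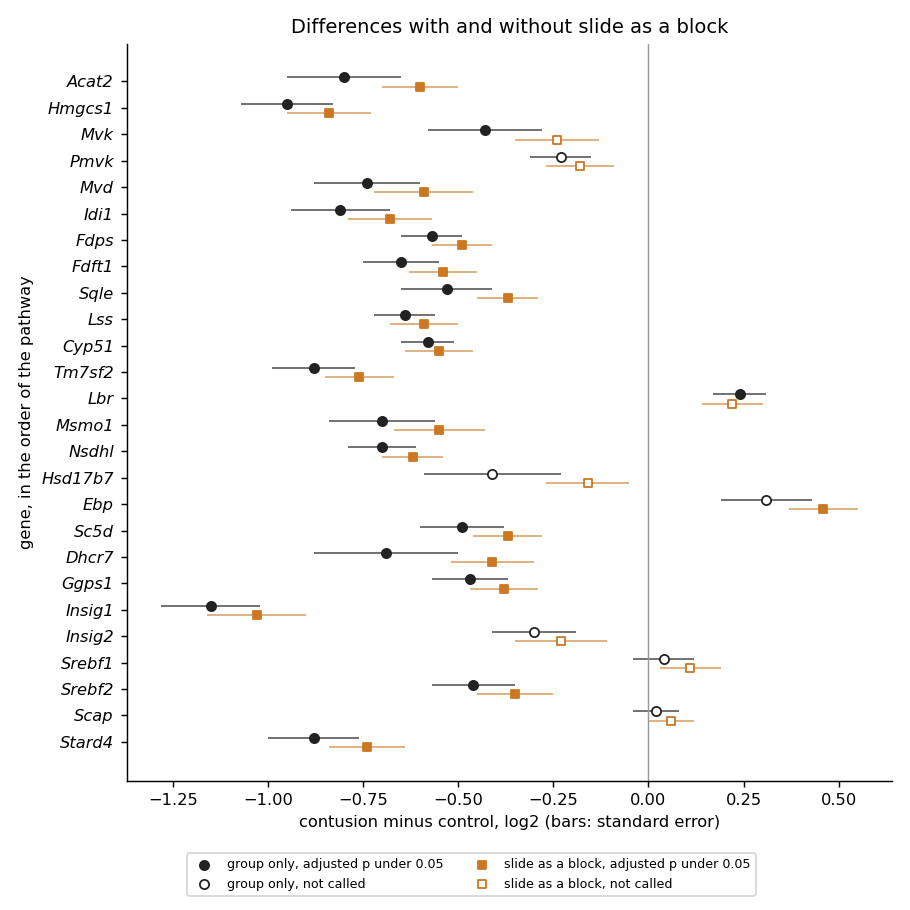
Contusion minus control difference of each gene in log2 units with its standard error, from the fit with group only (circles) and with slide as a block (squares); filled symbols have an adjusted p under 0.05. Most differences are negative in both fits and nearer to 0 with the block, and Lbr, Ebp, Srebf1 and Scap lie above 0 in both (Srebf1 and Scap fell just below 0 with normexp and quantile scaling).

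The largest change of all 26 genes, here and in each alternative fit by gene, was in a sterol sensor and not in an enzyme. Insig1, the protein that holds SCAP in the endoplasmic reticulum and is itself switched on by SREBP, was at 4.06, 4.64, 4.56 and 4.50 in controls and 3.26, 3.28, 3.40 and 3.23 in contusion samples. All contusion samples lay far below all controls. The difference was -1.15 ± 0.13 (SE, adjusted p = 0.000328), or 45.1% of the control level, and 0.841% of tested mRNAs had a lower difference. Its 3 probes gave -1.15, -1.13 and -1.15. Among single probes, however, a dim probe of the enzyme Hmgcs1 had a lower difference, at -1.25. The difference was -1.31 within slide 1 and -0.76 within slide 2.

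Insig2, its relative that SREBP does not switch on, had a smaller difference. It was at 3.62, 3.91, 3.68 and 3.93 in controls and 3.53, 3.58, 3.58 and 3.26 in contusion samples, without overlap, but the difference of -0.30 ± 0.11 (SE) did not pass (adjusted p = 0.0549), and was -0.31 within slide 1 and -0.15 within slide 2. When every probe was tested as a feature of its own, all 3 Insig2 probes passed narrowly (-0.38, -0.30 and -0.24). The log2 ratio of Insig1 to Insig2 within each array was 0.85 lower on average after contusion (change -0.85), with no overlap between the groups and no test. That change restates the differences of both genes and is not a further result.

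The mRNAs of the transcription factors gave different results. Srebf2, which mainly drives cholesterol genes, was at 1.52, 1.92, 1.84 and 1.60 in controls and 1.39, 1.12, 1.31 and 1.22 in contusion samples. It fell by 0.46 ± 0.11 (SE, adjusted p = 0.0101), to 72.6% of the control level, and its 3 probes ranged from -0.51 to -0.40. Within the slides it was -0.40 and -0.30. Srebf1, which mainly drives fatty acid genes, was at 4.64, 4.81, 4.89 and 4.78 in controls and 4.90, 4.80, 4.89 and 4.70 in contusion samples, the groups lying over each other. Its difference was 0.04 ± 0.08 (SE, adjusted p = 0.693; 95% interval -0.13 to 0.22), with 0.07 and 0.16 within the slides. Scap, the escort of both, was at 4.89, 4.99, 4.96 and 5.05 in controls and 5.02, 4.98, 4.98 and 4.99 in contusion samples, with a difference of 0.02 ± 0.06 (SE, adjusted p = 0.819; 95% interval -0.12 to 0.16), and 0.02 and 0.10 within the slides. With normexp and quantile scaling, or without control replicate 1, the Srebf1 and Scap differences were between -0.03 and -0.0014, and not called. The log2 ratio of Srebf2 to Srebf1 within each array was 0.51 lower on average after contusion (change -0.51), with no overlap between the groups and no test. That change restates the differences of both genes and is not a further result. Array signals are mRNA levels and do not measure how much SREBP protein was cut free.

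Stard4, a soluble carrier that moves cholesterol between membranes and is an SREBP target, was at 2.14, 2.62, 2.65 and 2.62 in controls and 1.70, 1.68, 1.61 and 1.52 in contusion samples. It fell by 0.88 ± 0.12 (SE, adjusted p = 0.000842), to 54.3% of the control level, and all 4 of its probes were lower. Within the slides it was -0.93 and -0.54. Ggps1, the synthase of the geranylgeranyl diphosphate used to anchor small GTPases in membranes, was at 3.69, 3.89, 3.93 and 3.92 in controls and 3.51, 3.30, 3.52 and 3.22 in contusion samples. It fell by 0.47 ± 0.10 (SE, adjusted p = 0.00537), and one of its other 2 probes, at -0.17, did not pass (adjusted p = 0.0944). Within the slides Ggps1 was at -0.40 and -0.35.

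Across probes, the 26 genes had 70, with at least 2 for each gene, and all 70 were tested. Of these, 55 were called lower and 2 higher, where 27.2% and 26.5% of all mRNA probes were. In 24 genes every probe had the same sign; the exceptions were Fdft1 and Mvk, and no gene had probes called in opposite directions.

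CircRNAs are closed loops spliced from exons of a gene, and those placed inside the 26 genes are a second readout of the same loci. The build of their positions is not given in the sources used here, and the file headers name mm9. Inside a gene of GRCm38.p6 fell 98.2% of the 37852 circRNA positions, against 40.8% after a shift of 1000000 bases. Positions were placed in GRCm38.p6, but no mm9 gene positions were compared, so the test does not tell these builds apart. Inside 11 of the 26 genes lay 56 circRNAs, and 55 could be tested. Of these, 30 were lower, 1 was higher and 24 did not pass, beside 25.7% and 16.2% of all circRNAs. Their median difference was -0.30, against -0.05 for all circRNAs, and with slide as a block limma called 28 lower and 0 higher (1 at an unadjusted p under 0.05), beside 22.9% and 13.0% of all circRNAs. Circles of a gene overlap and share exons, so they are not independent of each other, and 23 of the 55 lay within Srebf2 alone.

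Srebf2 gave most of the lower calls: 20 of the 23 circRNAs placed within it were lower, with a median of -0.44, close to the -0.46 of its mRNA. The 3 that did not pass ranged from -0.11 to 0.13, and the one at 0.13 lies on the strand opposite to Srebf2. All 3 circRNAs placed within Nsdhl were lower (median -0.59) and both of Fdft1 (median -0.66). Of the 11 tested in Insig2, 3 were lower, and the median was -0.18. The single Sqle circRNA was not called (0.17, with a range of -0.07 to 0.29 over the fits without 1 array); it was at -1.88 in contusion replicate 3 and between -2.94 and -2.70 on the other 7 arrays.

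Within Fdft1, the circRNA at chr14:63151150-63159146 on the minus strand was at 1.44, 1.57, 1.51 and 1.64 in controls and 0.92, 0.96, 0.86 and 0.93 in contusion samples (difference -0.62 ± 0.07, SE, adjusted p = 0.000279). A larger circle with the same start, chr14:63151150-63164629, was at 0.54, 1.06, 0.95 and 1.11 in controls and 0.46, 0.04, 0.25 and 0.09 in contusion samples (difference -0.70 ± 0.15, SE, adjusted p = 0.00606). Neither overlapped between groups, and both differences lay near the -0.65 of the mRNA. The Hmgcs1 circRNA at chr13:119699664-119700633 on the plus strand was at 0.24, 0.53, 0.42 and 0.52 in controls and -0.40, -0.26, -0.10 and -0.27 in contusion samples (difference -0.69 ± 0.09, SE, adjusted p = 0.000775). The lowest difference, -0.77 ± 0.15 (SE, adjusted p = 0.00439), belonged to a dim circRNA at chrX:72955090-72957460 that lies within Nsdhl but on the opposite strand; 51 of the 53 circRNAs with a known strand of the gene lay on the gene's own strand.

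Of the 7 Lbr circRNAs, 1 was called higher, which is near the share of all circRNAs called so. Their differences ran from 0.03 to 0.51, with a median of 0.17. The signs were not stable: the circle at chr1:181832149-181836288 was at 0.03 over both slides, but at -0.26 and -0.29 within the slides and between -0.10 and 0.19 over the fits without 1 array, and 3 more were below 0 within 1 slide (-0.06 and -0.07 within slide 1, -0.19 within slide 2). The circle at chr1:181828712-181831734 was the 1 called higher (difference 0.51 ± 0.17, SE, adjusted p = 0.0409), its groups overlapped, and the call was lost with slide as a block (adjusted p = 0.123). Leaving out 1 array gave between 0 and 3 higher circRNAs over the 11 genes: 0 without control replicate 1, 2 or 4 or contusion replicate 2, 3 or 4, and 3 without control replicate 3.

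**Figure D4:**
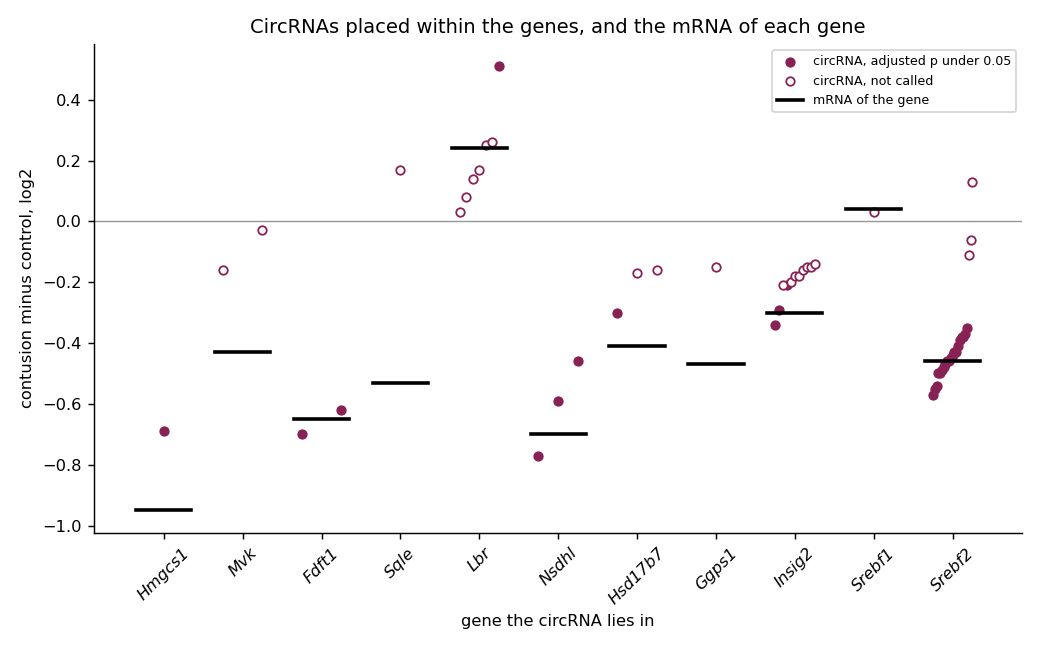
Contusion minus control difference in log2 units of each tested circRNA (circles, filled where the adjusted p is under 0.05) by the gene it lies in, with the mRNA of that gene as a black bar. Of the Srebf2 circles, 20 of 23 are lower and lie around the bar at -0.46, and the 7 Lbr circles lie between 0.03 and 0.51, with 1 called.

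Other genes of sterol and lipid handling, 77 in 7 lists, were fitted in the same way. Of 76 tested, 21 were higher and 25 lower, beside the 25.8% and 25.4% of all mRNAs. Fatty acid synthesis leaned lower, with 9 of 16 lower, 2 higher and a median of -0.43. Acss2, which makes acetyl-CoA from acetate, was at 3.97, 4.43, 4.17 and 4.50 in controls and 3.48, 3.44, 3.35 and 3.41 in contusion samples, a difference of -0.85 (adjusted p = 0.000894). Thrsp, a lipogenic regulator, fell by 0.76 (adjusted p = 0.00203), and Lpin1, which makes diacylglycerol, by 0.68 (adjusted p = 0.000964). Gpam, the acyltransferase that starts glycerolipid assembly, rose by 0.93 (adjusted p = 0.000261), and Me1, the malic enzyme that supplies NADPH, by 0.33 (adjusted p = 0.0205), though Me1 lost its call without control replicate 4 or contusion replicate 1 (adjusted p up to 0.0583).

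Genes that export, esterify or oxidise cholesterol included large increases. Of 9 genes around the sterol receptor LXR and efflux, 5 were higher and 3 lower. Abca1, the pump that loads cholesterol onto apolipoproteins, was at 2.30, 2.03, 2.20 and 1.64 in controls and 3.85, 3.91, 3.81 and 3.93 in contusion samples, a difference of 1.83 (adjusted p = 0.000118). Mylip, an LXR target that degrades lipoprotein receptors, rose by 0.84 (adjusted p = 0.000586) and Lpcat3, which puts polyunsaturated acyl chains into phospholipids, by 0.74 (adjusted p = 0.000149). Abcg4 fell by 0.80 (adjusted p = 0.000442), Pltp, the phospholipid transfer protein, by 0.73 (adjusted p = 0.000411), and Nr1h2, which encodes LXR beta, by 0.56 (adjusted p = 0.00186). Nr1h3, which encodes LXR alpha, and Abcg1 completed the 5 that rose, at 0.60 and 0.28, though Abcg1 lost its call without control replicate 3 or contusion replicate 1 or 2 (adjusted p up to 0.0541).

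Of 8 oxysterol and ester genes, 3 were higher and 3 lower. Ch25h, which makes the oxysterol that binds INSIG, was at 1.44, 0.17, 0.72 and -0.95 in controls and 4.19, 4.18, 4.42 and 4.18 in contusion samples, a difference of 3.90 ± 0.44 (SE, adjusted p = 0.000352). Its controls were widely spread and control replicate 1 was the highest of them. Soat1, which esterifies cholesterol for storage, was at 1.88, 1.68, 1.85 and 1.35 in controls and 3.33, 3.30, 3.33 and 3.49 in contusion samples (difference 1.67, adjusted p = 0.000112). Hsd3b7, of bile acid synthesis, rose by 1.11 (adjusted p = 0.000202). Cyp46a1, the neuronal hydroxylase through which brain exports cholesterol, was at 3.69, 3.65, 3.53 and 3.67 in controls and 2.70, 2.78, 2.80 and 2.65 in contusion samples (difference -0.90, adjusted p = 0.000114). Cyp27a1 (-0.62, adjusted p = 0.0372) and Cyp39a1 (-0.50, adjusted p = 0.0226) were lower too, with overlapping groups, and neither was called with slide as a block (adjusted p = 0.125 and 0.0783) or without control replicate 2, 3 or 4 or contusion replicate 2 or 4 (adjusted p up to 0.0953), nor was Cyp27a1 without contusion replicate 3.

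Uptake and transport leaned the other way from synthesis, with 5 of 10 higher and 0 lower by limma (also 0 at an unadjusted p under 0.05). Npc2, which hands cholesterol out of lysosomes, rose by 0.56 (adjusted p = 0.000413). Lrp1, a lipoprotein receptor, rose by 0.53 (adjusted p = 0.000370), and Gramd1b, which carries cholesterol from the plasma membrane inward, by 0.53 (adjusted p = 0.000392; 0.13 and not called with the mean of its probes). Scarb1 (0.52) and Gramd1c (0.43) were the other 2 that rose. Among 10 genes of SREBP processing and sterol-driven degradation, 2 were higher and 2 lower, neither share above that of all mRNAs. Erlin1 and Erlin2, membrane scaffolds of that degradation, rose by 0.62 (adjusted p = 0.00167) and 0.35 (adjusted p = 0.00334). Fbxw7, which marks cut SREBP for destruction, fell by 0.73 (adjusted p = 0.000472), and Marchf6, a ligase that marks squalene epoxidase, fell by 0.35 (adjusted p = 0.0293), a call that did not hold with slide as a block (adjusted p = 0.0928) or in any fit without 1 array except those without control replicate 1 or contusion replicate 1 (adjusted p up to 0.0795). The proteases that cut SREBP, Mbtps1 and Mbtps2, differed by -0.03 and -0.15 and were not called.

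The side branches of the mevalonate pathway were mixed, with 2 of 15 higher, 4 lower and a median of -0.17. The share called lower was near that of all mRNAs, and with slide as a block 2 were lower. Dhdds, of dolichol synthesis, fell by 0.63 (adjusted p = 0.000863), Pdss2, of coenzyme Q synthesis, by 0.43 (adjusted p = 0.00421), and Nus1, the partner of Dhdds, by 0.22 (adjusted p = 0.0235; 0.0537 with slide as a block). Icmt, a prenyl-protein methyltransferase, was the fourth, at -0.20 (adjusted p = 0.0424), but it was not called with slide as a block (adjusted p = 0.0602) or in 7 of the 8 fits without 1 array, all but the one without control replicate 3 (adjusted p up to 0.110). Nus1 was not called without control replicate 2 or 4 or contusion replicate 1 or 4 (adjusted p up to 0.0678), and with the mean of its probes it was at -0.09. Pggt1b, of geranylgeranyl transfer, rose by 0.69 (adjusted p = 0.000555), and Zmpste24, a prenyl-protein protease, by 0.27 (adjusted p = 0.0165). Of 8 tested partners of the sterol enzymes, 2 were higher and 4 lower. The electron carriers Cyb5r3 and Cyb5a rose by 0.78 (adjusted p = 0.000746) and 0.52 (adjusted p = 0.00211). Pgrmc1, which binds sterol enzymes of the P450 kind, fell by 0.43 (adjusted p = 0.00229), Ebpl, a relative of Ebp, by 0.47 (adjusted p = 0.0189; 0.0569 with slide as a block), and Erg28, a scaffold of the demethylation enzymes, by 0.25 (adjusted p = 0.0293; 0.0920 with the block). Aacs, acetoacetyl-CoA synthetase, was the fourth, at -0.24 (adjusted p = 0.0202), but it was not called with the block (adjusted p = 0.0645) or without control replicate 2 or 4 or contusion replicate 4 (adjusted p up to 0.0560). Ebpl lost its call without control replicate 4 (adjusted p = 0.0542), and Erg28 without control replicate 2, 3 or 4 or contusion replicate 1 or 4 (adjusted p up to 0.0771).

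**Figure D5:**
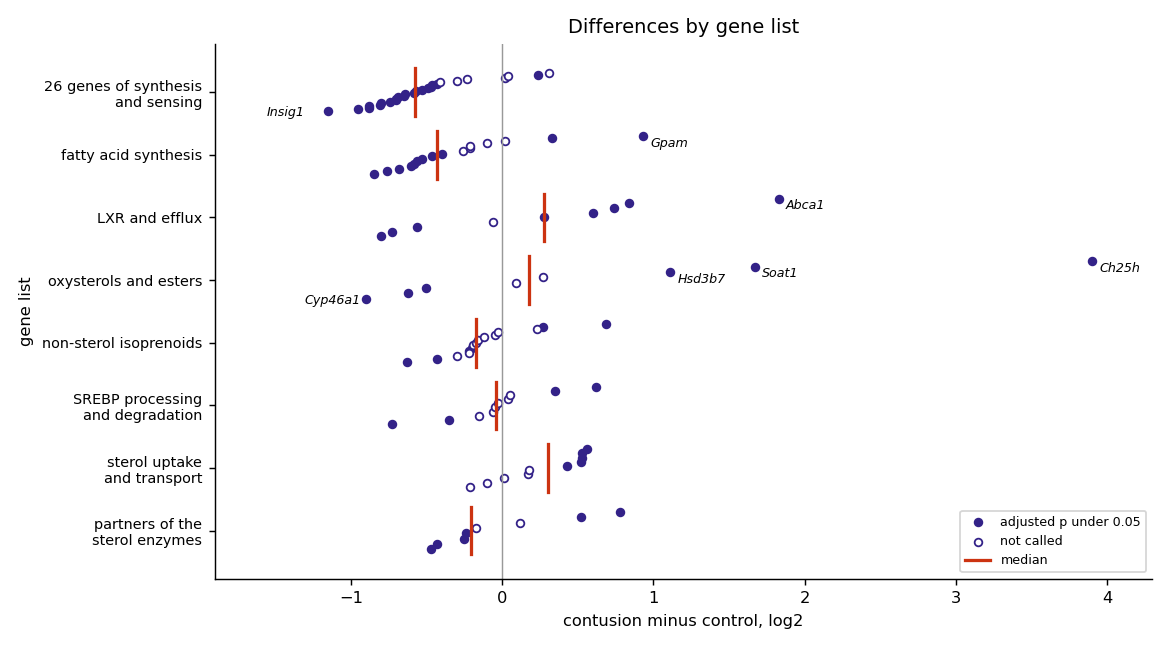
Contusion minus control difference in log2 units of every tested gene, by list; filled points have an adjusted p under 0.05 and red bars are medians. The 26 genes have a median of -0.57 and fatty acid synthesis -0.43, while uptake and transport has 0.30 and Ch25h, Abca1 and Soat1 lie far to the right.

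Markers of the cells in the cord moved as well, and their part in the results above was not tested. Their counts stand beside the same 25.4% of all mRNAs called lower and 25.8% higher (20.4% and 25.2% with slide as a block). All 11 neuron markers were lower (median -0.72; 10 with slide as a block, all but Stmn2, which also lost its call in 6 of the 8 fits without 1 array), with mean levels of 5.72 to 5.91 in controls and 4.96 to 5.24 in contusion samples. Of 13 oligodendrocyte markers, the cells that build myelin, 6 were lower and 1, Cldn11, higher (median -0.26), with 6.91 to 7.32 in controls and 6.76 to 6.93 in contusion samples; with slide as a block 1 of 13 was lower, below the share of all mRNAs, and 1 higher. Of those 7 calls, Aspa lost its call in 6 of the 8 fits without 1 array, Cldn11 in 5, Cnp, Ermn and Ugt8a in 4 each, and Fa2h in 2 (adjusted p up to 0.122). Control replicate 1 was the lowest control for the oligodendrocyte list, as it was for the 26 genes, and the highest control for the macrophage list (2.47). The part of either in its levels of the 26 genes was not tested. Of 9 astrocyte markers, 3 were higher (Aldh1l1, Aqp4 and Gfap) and 5 lower (Slc1a2, Slc1a3, Gjb6, Fgfr3 and Ntsr2), with ranges of 6.03 to 6.26 and 5.93 to 6.02; Gfap lost its call with the block (adjusted p = 0.120) and in 6 of the 8 fits without 1 array. All 8 macrophage markers were higher (median 3.11), from 0.27 to 2.47 in controls and from 4.88 to 5.23 in contusion samples. Of 7 oligodendrocyte precursor markers 4 were higher (Pdgfra, Cspg4, Gpr17 and Ptprz1; 4.35 to 4.47 against 4.83 to 4.89), and of 5 microglia markers 2 were (Tmem119 and Cx3cr1; 2.10 to 2.67 against 2.62 to 3.02). Of the precursor markers, Ptprz1 lost its call with the block (adjusted p = 0.0995) and in 7 of the 8 fits without 1 array. Markers of the neuron, oligodendrocyte, astrocyte and macrophage lists were all well above background on every array.

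Markers of skeletal muscle, neutrophils, Schwann cells and adipocytes also varied between arrays, and the source of these signals was not tested. Skeletal muscle markers had mean levels of 4.17 and 2.32 in contusion replicates 1 and 2, against 0.22 and -0.02 in replicates 3 and 4 and -0.70 to 1.25 in controls; limma called 0 of 9 (1 at an unadjusted p under 0.05). Neutrophil markers (1 of 6, Ly6g, higher) ranged from 1.12 to 3.76 in controls and from 1.93 to 3.94 in contusion samples. Of Schwann cell markers, 2 of 6, Cdh19 and Gldn, were higher (-0.83 to 2.22 against 1.10 to 1.74), but neither with slide as a block (adjusted p = 0.0749 and 0.0844) nor in 5 of the 8 fits without 1 array, and 0 of 5 tested adipocyte markers were called by limma (0 also at an unadjusted p under 0.05; -2.83 to 0.60 against -2.35 to -1.32). Without contusion replicates 1 and 2, 17 of the 26 genes were lower and the median was -0.59. Without control replicates 1 and 3, whose neutrophil markers were highest among the controls, 21 were lower and the median was -0.68.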

How the data were processed

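Values from 8 arrays of spinal cord RNA were used, 4 per group as the titles give them. The deposited files give an intensity per spot, which Agilent Feature Extraction 10.7 had corrected for background and spatial trend (version per the submitters' processing notes, which also name limma), per the file headers. The authors' deposited series table holds log2 values of the same probes with column medians near 5.40; its scaling between arrays is not given in the sources used here, and it served as an alternative. Here, the processed intensity was log2-transformed and each array was centred on its 75th percentile, taken over 150305 non-control probes. Features had to be well above background on at least 4 arrays; a gene was read from its brightest probe on average. Tests used limma 3.58.1 (lmFit, eBayes, two-sided) in R 4.3.3, adjusted by Benjamini-Hochberg over all 89140 features and called at an adjusted p under 0.05. The script was tested on simulated data with independent noise, no slide effect and no outlying array. That test therefore says nothing on how such features affect the calls. P-values measure the spread between these mice. In the fit with group only, that spread also holds any difference between the slides and any between the days that the descriptions give.

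The 26 genes and all gene lists were chosen with earlier results of these data known. Of each list, up to 3 called genes with the largest increase and 3 with the largest decrease were named, and up to 4 circRNAs each way whose groups did not overlap; the Lbr circRNA, the Insig2 and Sqle circRNAs, the SREBP proteases, the markers and Nr1h3, Abcg1, Scarb1, Gramd1c, Icmt and Aacs were named after their values were seen. Gene symbols came from the files or RefSeq GRCm38.p6, which matched 99.1% of mRNA accessions. From the gene lists, 2 genes are not reported here and are in no count of the lists. Promoters of 4 genes (Fdps, Fdft1, Sqle and Stard4) were not used here. Alternatives covered background correction, scaling, dim filters, probe choice, the set of p-values, slide, replicate number and left-out arrays.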

Additional observations from a re-analysis of the deposited data

Results flagged for a closer look

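Within the groups of 4, each of the 26 genes was checked for an array far from the other 3, its gap to the nearest taking most of the group's range (Dixon's test at 95%). Of 52 groups, 5 were picked out, and chance alone picks about 1 in 20. Control replicate 1 was low for Dhcr7 (4.34, others 5.00 to 5.11), Stard4 (2.14, others 2.62 to 2.65) and Ggps1 (3.69, others 3.89 to 3.93). Contusion replicate 1 was high for Sqle (5.19, others 4.98 to 5.00). Contusion replicate 4 was low for Insig2 (3.26, others 3.53 to 3.58).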

How the results depend on the processing

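Between 17 and 22 of the 26 genes were lower in every alternative tried, and 17 genes (all those called but Mvk, Dhcr7 and Lbr) kept their call in all of them. The median difference ranged from -0.68 to -0.45 in the fits, and was -0.32 within slide 2. The count of higher genes, 1, became 2 with normexp and quantile scaling, with the authors' series table and with the mean of a gene's probes, and 0 with the replicate block, without control replicates 1 and 3 and without contusion replicates 1 and 2; leaving out 1 array gave 0 to 1. Of the other sterol and lipid genes, 25 lower became 15 with the replicate block and 16 without contusion replicates 1 and 2. The 1 higher circRNA became 0 with normexp and quantile scaling, with the percentile taken over bright mRNA probes, without a dim filter, with slide as a block and without control replicates 1 and 3; leaving out 1 array gave 0 to 3. Srebf1 turned to -0.01 with normexp and quantile scaling and to -0.0014 without control replicate 1 (-0.0014 to 0.08 over the fits without 1 array). Scap turned to -0.03 with that scaling, to -0.01 without control replicate 1 (-0.01 to 0.05 over the fits without 1 array) and to -0.03 without control replicates 1 and 3; neither gene was called in any of these. The cause of these shifts was not tested. With the replicate block, 17 genes were lower and 0 higher, with a median of -0.57. Deviations of same-numbered samples correlated at -0.235, 0.0326, 0.0586 and -0.173. Same-numbered samples always lay on different slides, so these values cannot tell whether the numbers pair the samples. With 4 arrays a group, the Srebf1 and Scap intervals allow differences of about 0.22 and 0.16 on the log2 scale.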
